A study of Mus musculus with 90 samples.

Results

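The 8 genes described here, Tcp1, Cct2, Cct3, Cct4, Cct5, Cct6a, Cct7 and Cct8, encode the subunits of the cytosolic chaperonin CCT (also called TRiC), and were taken by symbol from the 24422 genes of the deposited count table. All 8 had a row and all 8 passed the filter on low counts, which kept 16511 genes. The study asked what the embryo loses when the oocyte lacks the zinc finger transcription factor PLAG1, and counted transcript 5′ ends in single CD-1 mouse oocytes and embryos, using molecular identifiers and added ERCC spike-in RNA. WT oocytes and embryos came from WT mothers. The matPlag1KO oocytes came from Plag1 knockout mothers, in which lacZ replaces the whole coding region, and the matPlag1KO embryos from such mothers crossed with WT males, so that the embryos were heterozygous and carried a WT paternal allele. All mothers were sexually mature and superovulated, and embryos were cultured in KSOM medium. Oocytes at metaphase II (MII) were collected 21 to 23 h after hCG, 2-cell (2c) embryos after 45 to 47 h and 8-cell (8c) embryos after 71 to 73 h. The labels do not tie a library to a mother, so embryos of 1 mother cannot be grouped and each p-value measures the spread between single oocytes or embryos.

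CCT is a double ring in which each ring holds 1 copy of every subunit, and newly made proteins fold inside its closed chamber while the ring uses ATP. Actin and tubulin are its obligate clients, and it also folds WD-repeat proteins such as CDC20, the activator of the anaphase-promoting complex, which the egg and the cleaving embryo use to leave each division. Prefoldin delivers nascent actin and tubulin to the ring, phosducin-like proteins act with it as cofactors, and tubulin leaves it for a separate set of tubulin folding cofactors. In biochemical work the subunits TCP1, CCT2, CCT4 and CCT5 bind ATP tightly and CCT3, CCT6A, CCT7 and CCT8 weakly, and the results are given in that order.

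Of 90 libraries, 78 had a median of at least 1 CPM (gene counts scaled to an equal total in every library) over the expressed genes and were used: 16 WT and 14 matPlag1KO oocytes, 11 and 11 embryos at 2c, and 15 and 11 at 8c. Their gene counts ran from 92475 to 2502421 per library and the 2c libraries held the fewest, up to 256529. CPM values of genes and gene sums below were also adjusted by TMM factors (trimmed mean of M values), so their library totals are not equal. Libraries came in 2 multiplexed pools, which the labels call libA and libB, with both genotypes of each stage in both. Plag1 transcripts were found in all 16 WT oocytes (mean 32.8 CPM) and in 3 of the 14 matPlag1KO oocytes (0.457 CPM). At 2c they were found in 1 of 11 embryos of WT mothers (0.392 CPM) and 9 of 11 of knockout mothers (35.9 CPM), and at 8c in 5 of 15 and 4 of 11. Summed oocyte markers (Zp1, Zp2, Zp3, Gdf9, Bmp15, Mos) had a median of 3447 CPM in WT oocytes and 57.3 CPM in WT 8c embryos, summed 8c markers (Krt8, Krt18, Cdx2, Pou5f1, Nanog) 602 and 1329 CPM. In matPlag1KO the medians were 7783 and 83.1 CPM for the oocyte markers and 460 and 451 CPM for the 8c markers. The median of the 8c marker sum thus did not set 8c embryos apart from oocytes in matPlag1KO. Of the 2c markers, Zscan4c, Zscan4d and Zfp352 had counts at 2c while Tcstv1 and Tcstv3 were at 0 throughout. Summed markers of cumulus and granulosa cells had group medians of 0 to 4.06 CPM, with Ptx3 at 0 in all 6 groups.

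The 8 genes lie on 8 chromosomes (mm9, positions of the deposited table): Tcp1 on chr17:13109195-13117933, Cct2 on chr10:116488054-116500870, Cct4 on chr11:22890593-22903336, Cct5 on chr15:31520639-31531559, Cct3 on chr3:88101057-88125688, Cct6a on chr5:130293232-130322319, Cct7 on chr6:85401499-85418471 and Cct8 on chr16:87483570-87496114. Tcp1, Cct3, Cct4, Cct6a and Cct7 are on the plus strand and the others on the minus strand. For 6 of the 8, a gene on the other strand starts within 1000 bases of the subunit's start, as holds for 2919 of all 24422 genes. It points away from the subunit for 5 of them and runs back across the subunit's start for Cct7. Those neighbours are Mrpl18 at 238 bases from Tcp1, Tsacc at 297 from Cct3, Fam173b at 312 from Cct5, Psph at 103 from Cct6a, Pradc1 at 465 from Cct7 and B130034C11Rik at 204 from Cct8. Tcp1 overlaps Acat3, Cct7 overlaps Pradc1 and Cct8 overlaps Usp16, all on the opposite strand, and since the sources do not say whether counting used the strand, counts of these pairs may be shared. Cct3 has 1 further stretch in the genome, on chromosome 4, with 91.4% identity over at least 50% of its transcript, and a partial stretch matches Tcp1 at 97.1%.

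RefSeq promoters (build GRCm38.p6) were found for 7 of the 8 subunits, Cct4 being the one not matched, with 9 start sites in all. The letters GGGCGG, the core of a GC box, stand on either strand within the 250 bases before at least 1 start of each of the 7, against 33.0% of all 32536 promoters. CCAAT occurs in Cct6a (2 matches), Cct3 (2), Cct7 (3) and Tcp1 (1), against 33.8% of all promoters, CCGGAA in Tcp1, Cct2, Cct5, Cct7 and Cct8 (12.1%), and TATAAA in none (12.3%). The PLAG1 consensus was matched before 1 start, that of Cct2, where both matches overlap the GC boxes (16.9% of all promoters). GAANNTTC was matched before the other Cct2 start (6.72%). The GC content of the 9 windows ran from 45.2% to 66.8%, against a median of 52.4% over all promoters. Such matches are descriptions of the letters and not binding sites. Printed below are the bases before the start of the subunit that was nearly absent from oocytes (Cct6a), of the one with the PLAG1 match (Cct2, its first start) and of the one that fell most from MII to 2c in WT (Cct8), as far as those bases lie in no annotated gene, 5′ to 3′ on the gene's strand, with matches to the motifs named above in capitals, on either strand.
Cct6a, chr5:130293130-130293231 (mm9, plus strand): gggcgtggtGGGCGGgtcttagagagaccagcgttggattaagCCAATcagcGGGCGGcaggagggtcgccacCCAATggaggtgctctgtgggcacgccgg
Cct2, chr10:116500909-116501058 (mm9, minus strand): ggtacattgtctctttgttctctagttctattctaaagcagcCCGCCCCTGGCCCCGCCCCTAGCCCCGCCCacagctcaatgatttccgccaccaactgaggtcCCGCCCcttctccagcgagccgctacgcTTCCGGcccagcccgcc
Cct8, chr16:87496115-87496264 (mm9, minus strand): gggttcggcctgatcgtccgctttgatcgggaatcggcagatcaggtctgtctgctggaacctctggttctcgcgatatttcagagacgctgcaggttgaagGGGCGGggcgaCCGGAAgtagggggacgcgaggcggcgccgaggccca
The Cct6a stretch holds CCAAT at 59 and 29 bases and GGGCGG at 93 and 50 bases before the start. The Cct2 stretch holds GC boxes on the other strand at 108, 96, 84 and 45 bases, and the PLAG1 matches at 105 and 98 bases. The Cct8 stretch holds a GC box at 48 bases and CCGGAA at 37 bases.

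Per spike-in count, transcripts of the 8 subunits summed were scarcest at 2c and most abundant at 8c. The 8 subunits together had 32.6 ± 20.3 counts per 1000 spike-in counts (SD, n = 16) in WT oocytes, 17.6 ± 4.88 (n = 11) in WT 2c embryos and 139 ± 34.8 (n = 15) in WT 8c embryos. The sums for matPlag1KO came to 71.9 ± 48.9 (n = 14), 12.3 ± 3.11 (n = 11) and 139 ± 71.8 (n = 11). In CPM the order differed. WT oocytes had 574 ± 218 CPM, below 898 ± 185 CPM in WT 2c embryos. The matPlag1KO oocytes had 961 ± 551 CPM, above 579 ± 164 CPM in matPlag1KO 2c embryos. At 8c the sums were 3819 ± 708 CPM in WT and 3621 ± 619 CPM in matPlag1KO. The scales differ as oocytes and 8c embryos held more gene counts per spike-in count. The log2 of that ratio (± SD) for WT was 5.59 ± 0.88 at MII, 3.98 ± 0.21 at 2c and 5.52 ± 0.35 at 8c, and for matPlag1KO 6.17 ± 0.57, 4.07 ± 0.35 and 5.37 ± 0.48. Between 2c and 8c the number of cells differs too, and more cells and more RNA per cell cannot be told apart. Values are given per spike-in count for changes between stages and in CPM for differences between genotypes.

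**Figure D1:**
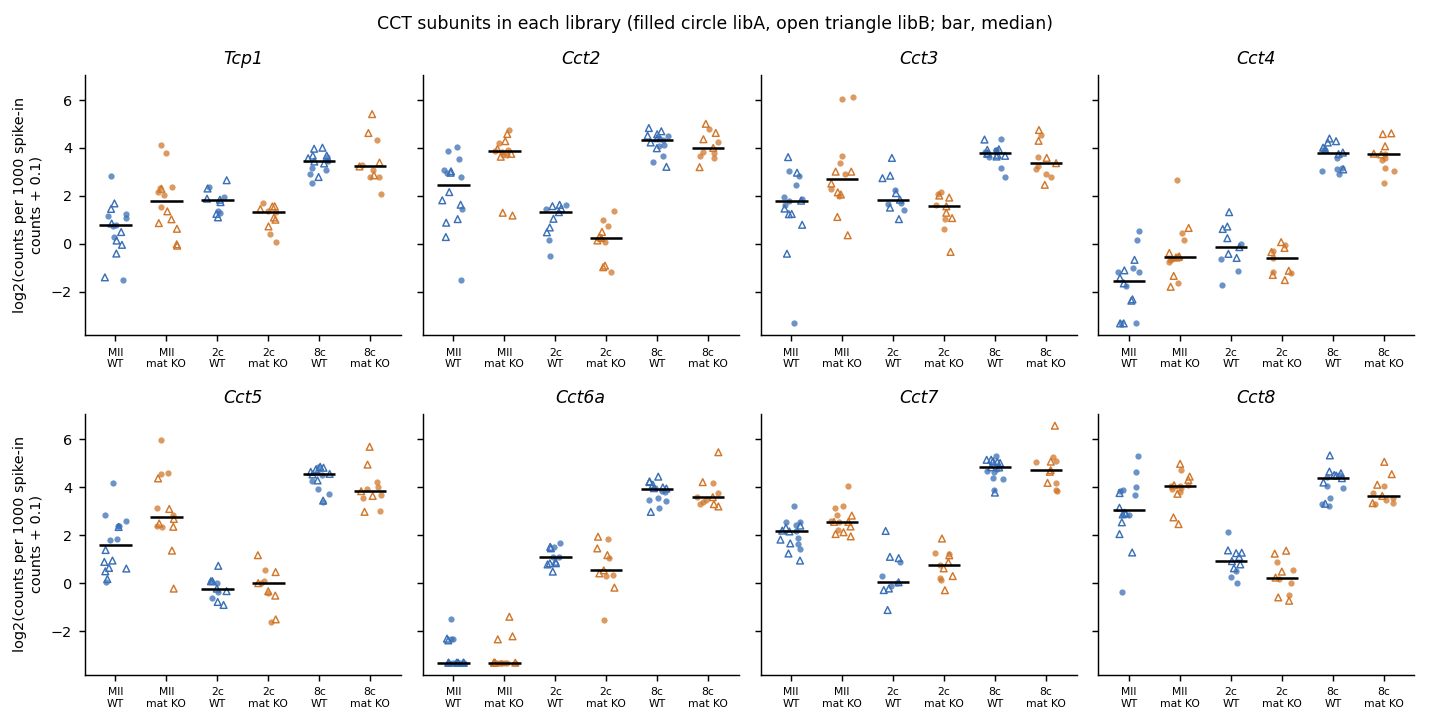
Counts of each CCT subunit in every library, as the log2 of counts per 1000 spike-in counts after a small offset (y axis), by stage and genotype (x axis). Filled circles are libA, open triangles libB and bars the group medians; the 8c median is the highest of the 3 stages for all subunits in WT and for all but Cct8 in matPlag1KO, and Cct6a lies at the floor in most oocytes (counts in 5 of 16 WT and 3 of 14 matPlag1KO).

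Among the tightly ATP-binding subunits, Tcp1, first found as a t-complex protein of the mouse and the namesake of the family, had 0.251 to 7.08 (median 1.61) counts per 1000 spike-in counts in WT oocytes, 2.05 to 6.19 (median 3.48) in WT 2c embryos and 5.68 to 16.0 (median 10.9) in WT 8c embryos. In matPlag1KO the values were 0.847 to 17.6 (median 3.40), 0.964 to 3.11 (median 2.41) and 4.11 to 42.4 (median 9.26). All 11 WT 2c embryos lay above the WT oocyte median and all 11 matPlag1KO 2c embryos below the matPlag1KO oocyte median, though the groups overlapped in both. By edgeR's quasi-likelihood test (p adjusted by Benjamini-Hochberg over all genes tested), Tcp1 rose from MII to 2c in WT (log2 fold change 0.94 ± 0.37 SE, adjusted p = 0.0204) and fell by 1.12 ± 0.39 in matPlag1KO (adjusted p = 0.00969), although the matPlag1KO change was 0.76 with TMM scaling and 0.19 in libB alone. The WT call was not made with no library left out (0.76, adjusted p = 0.0854). From 2c to 8c Tcp1 rose by 1.58 ± 0.39 in WT and 2.63 ± 0.42 in matPlag1KO.

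Cct2, whose loss of function causes a retinal dystrophy and which also serves as a receptor for the autophagy of protein aggregates, had 0.251 to 16.1 (median 5.55) counts per 1000 spike-in counts in WT oocytes, 0.606 to 2.99 (median 2.40) at 2c and 9.16 to 28.4 (median 19.8) at 8c. In matPlag1KO it had 2.16 to 26.8 (median 14.5), 0.344 to 2.47 (median 1.08) and 9.08 to 32.1 (median 15.9). Every 2c embryo of either genotype lay below the oocyte median of its genotype, and every 8c embryo above all 2c embryos of its genotype. Cct2 fell from MII to 2c by 1.57 ± 0.37 in WT (adjusted p = 0.000158, but adjusted p = 0.128 in libB alone, at -0.80, and -0.04 with TMM scaling) and by 3.66 ± 0.42 in matPlag1KO (adjusted p = 2.34e-12), then rose by 3.19 ± 0.40 and 3.99 ± 0.43 to 8c.

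Cct4, the delta subunit that contacts unfolded actin, was scarce in oocytes, at 0 to 1.35 (median 0.245) counts per 1000 spike-in counts in WT, with 0 counts in 4 of 16 oocytes. At 2c it had 0.202 to 2.40 (median 0.808) and at 8c 7.44 to 20.9 (median 13.9). In matPlag1KO the values were 0.188 to 6.17 (median 0.576), 0.25 to 0.949 (median 0.561) and 5.73 to 24.3 (median 13.2). The 8c embryos lay above all 2c embryos of their genotype, while oocytes and 2c embryos overlapped. Cct4 rose from MII to 2c in WT (1.47 ± 0.43, adjusted p = 0.00216, but 0.10 in libA alone), and in matPlag1KO its fold change was -0.88 ± 0.44 (adjusted p = 0.0752, and 1.04 with TMM scaling). From 2c to 8c it rose by 3.81 ± 0.47 in WT and 4.58 ± 0.50 in matPlag1KO.

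Cct5, the epsilon subunit, mutated in an inherited sensory neuropathy, had 0.919 to 17.9 (median 2.96) counts per 1000 spike-in counts in WT oocytes, 0.431 to 1.55 (median 0.752) at 2c and 10.4 to 28.8 (median 23.1) at 8c. In matPlag1KO it had 0.753 to 62.6 (median 6.71), 0.224 to 2.14 (median 0.898) and 7.75 to 51.5 (median 14.2). All 2c embryos lay below the oocyte median of their genotype and 7 of 11 WT 2c embryos below every WT oocyte. Cct5 fell from MII to 2c by 2.31 ± 0.44 in WT (adjusted p = 4.47e-06, but -0.79 and adjusted p = 0.0700 with TMM scaling) and 3.84 ± 0.47 in matPlag1KO (adjusted p = 4.12e-11). Its rise from 2c to 8c, 4.69 ± 0.49 in WT and 4.29 ± 0.49 in matPlag1KO, took every 8c embryo above all 2c embryos of its genotype.

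Among the weakly ATP-binding subunits, Cct3 had 0 to 12.2 (median 3.34) counts per 1000 spike-in counts in WT oocytes, 1.94 to 11.9 (median 3.48) at 2c and 6.73 to 20.5 (median 13.5) at 8c. In matPlag1KO it had 1.18 to 70.3 (median 6.51), 0.690 to 4.37 (median 2.85) and 5.41 to 26.8 (median 10.2). In WT all 2c embryos lay within the range of the oocytes, whereas in matPlag1KO all 11 2c embryos lay below the oocyte median. The MII to 2c fold change of Cct3 was 0.16 ± 0.42 in WT (adjusted p = 0.768, but 1.56 and called with TMM scaling) and in matPlag1KO it fell by 2.43 ± 0.47 (adjusted p = 6.88e-06, but adjusted p = 0.133 in libB alone, at -0.87, and adjusted p = 0.224 with TMM scaling, at -0.58). It rose from 2c to 8c by 1.57 ± 0.45 in WT and 2.22 ± 0.48 in matPlag1KO.

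Cct6a, the zeta subunit of the somatic ring, was nearly absent from oocytes. The 16 WT oocytes held 7 counts of it in all, in 5 libraries, and the 14 matPlag1KO oocytes 5 counts in 3 libraries. At 2c every embryo had counts, 1.29 to 3.11 (median 2.02) per 1000 spike-in counts in WT and 0.241 to 3.73 (median 1.35) in matPlag1KO, and at 8c 7.74 to 21.6 (median 15.3) and 9.08 to 43.9 (median 11.9). In WT the 3 stages did not overlap, and in matPlag1KO 10 of 11 2c embryos lay above all oocytes. Cct6a rose from MII to 2c in WT (log2 fold change 5.28 ± 0.45, adjusted p = 1.07e-17) and matPlag1KO (5.25 ± 0.49, adjusted p = 5.74e-16), values that depend on the prior count since the oocytes held so few counts. From 2c to 8c it rose by 2.76 ± 0.38 and 3.07 ± 0.40. Its homologue Cct6b, known mainly from testis, also had few counts in oocytes (4 in 3 WT and 1 in 1 matPlag1KO library), counts in 7 of 11 2c embryos of each genotype, and 4.78 to 65.1 CPM (median 26.8) in WT 8c embryos.

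Cct7, the eta subunit, had 1.82 to 9.27 (median 4.40) counts per 1000 spike-in counts in WT oocytes, 0.359 to 4.42 (median 0.923) at 2c and 13.6 to 39.9 (median 28.2) at 8c. In matPlag1KO it had 3.76 to 16.5 (median 5.77), 0.714 to 3.53 (median 1.57) and 14.2 to 94.8 (median 26.1). All matPlag1KO 2c embryos and 8 of 11 WT 2c embryos lay below every oocyte of their genotype, and all 8c embryos above every 2c embryo. Cct7 fell from MII to 2c by 1.58 ± 0.32 in WT (adjusted p = 1.22e-05) and 1.95 ± 0.33 in matPlag1KO (adjusted p = 2.74e-07), and rose by 4.24 ± 0.36 and 4.20 ± 0.37 to 8c. With TMM scaling neither fall was called (-0.21, adjusted p = 0.509 in WT and -0.19, adjusted p = 0.568 in matPlag1KO).

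Cct8, the theta subunit, which is abundant in pluripotent stem cells, had 0.668 to 39.0 (median 8.14) counts per 1000 spike-in counts in WT oocytes, 0.909 to 4.22 (median 1.79) at 2c and 9.28 to 40.1 (median 20.7) at 8c. In matPlag1KO it had 5.41 to 31.4 (median 16.6), 0.50 to 2.45 (median 1.07) and 9.72 to 33.3 (median 12.3). Every 2c embryo lay below the oocyte median of its genotype, in matPlag1KO below every oocyte, and every 8c embryo above all 2c embryos of its genotype. Cct8 fell from MII to 2c by 2.57 ± 0.36 in WT (adjusted p = 3.74e-09) and 3.73 ± 0.39 in matPlag1KO (adjusted p = 1.08e-13), and these falls were also called with TMM scaling. It rose from 2c to 8c by 3.30 ± 0.38 in WT and 3.59 ± 0.40 in matPlag1KO.

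Counted together, 3 of 8 subunits rose (Tcp1, Cct4 and Cct6a) and 4 fell (Cct2, Cct5, Cct7 and Cct8) from MII to 2c in WT, where 14.1% of all genes rose, 51.3% fell and the median log2 fold change was -1.46. The median of the 8 was -0.71, and oocytes and 2c embryos did not overlap for 1 of 8 (Cct6a, higher), against 1.62% of genes. In matPlag1KO 1 rose (Cct6a) and 6 fell (all but Cct4 and Cct6a), with 13.5% of all genes higher, 50.3% lower, an all-gene median of -1.42 and a subunit median of -2.19. Here 2 of 8 (Cct7 and Cct8) were lower without overlap, against 10.3% of genes. With TMM scaling, which takes out the change in total RNA and moved the all-gene medians to -0.03 and 0.14, 27.5% of all genes rose and 23.1% fell in WT, 29.1% and 19.3% in matPlag1KO. On that scale 4 subunits were higher and 1 lower in WT, Cct3 joining the risers and Cct8 alone falling, and 3 were higher (Tcp1, Cct4, Cct6a) and 3 lower (Cct2, Cct5, Cct8) in matPlag1KO. libA alone ended the WT calls of Tcp1 (0.59, adjusted p = 0.378) and Cct4.

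From 2c to 8c all 8 subunits rose in both genotypes, against 31.9% of all genes in WT and 29.1% in matPlag1KO. The median of the 8 was 3.24 in WT, beside 0.53 over all genes, and 3.79 in matPlag1KO, beside 0.30. The 8c embryos lay above every 2c embryo for 6 of 8 subunits in WT, all but Tcp1 and Cct3, where 7.94% of genes did so, and for 8 of 8 in matPlag1KO, where 7.08% did. TMM scaling moved the all-gene medians to -0.12 and -0.31 and the shares higher to 21.0% and 21.2%, and left 6 called in WT, with Tcp1 at 0.65 (adjusted p = 0.0667) and Cct3 at 0.76 (adjusted p = 0.0938), and 8 in matPlag1KO. In libA alone the WT rise of Tcp1 was 1.43 (adjusted p = 0.0802).

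From MII to 8c all 8 rose in WT, where 27.1% of genes rose, from 0.73 ± 0.30 for Cct8 (adjusted p = 0.0237, but -0.086 in libA alone, and adjusted p = 0.0633 with no library left out) through 5.28 ± 0.44 for Cct4 to 8.04 ± 0.46 for Cct6a. In matPlag1KO 4 rose, against 24.1% of genes: Tcp1 by 1.51 ± 0.37, Cct4 by 3.70 ± 0.43, Cct6a by 8.32 ± 0.50 and Cct7 by 2.25 ± 0.31. In libA alone Cct2 in WT (1.02, adjusted p = 0.0547) and Tcp1 in matPlag1KO (0.31, adjusted p = 0.626) were not called. The stages did not overlap for 3 of 8 in WT (Cct4, Cct6a, Cct7), against 5.58% of genes, and for 1 of 8 in matPlag1KO (Cct6a), against 5.16%. The other fold changes in matPlag1KO were 0.33 ± 0.35 for Cct2, 0.44 ± 0.40 for Cct5 (-0.51 in libA alone and 1.73 in libB alone, adjusted p = 0.00242), -0.21 ± 0.43 for Cct3 (-1.15 in libA alone and 1.64 in libB alone, adjusted p = 0.00486) and -0.14 ± 0.33 for Cct8 (0.85 with TMM scaling). With TMM scaling 7 of 8 were called in matPlag1KO, against 34.6% of genes called higher, and 8 of 8 in WT, against 36.0%. The 3 changes of a genotype share its libraries, and the difference of these stage changes between genotypes was tested only as given further on.

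**Figure D2:**
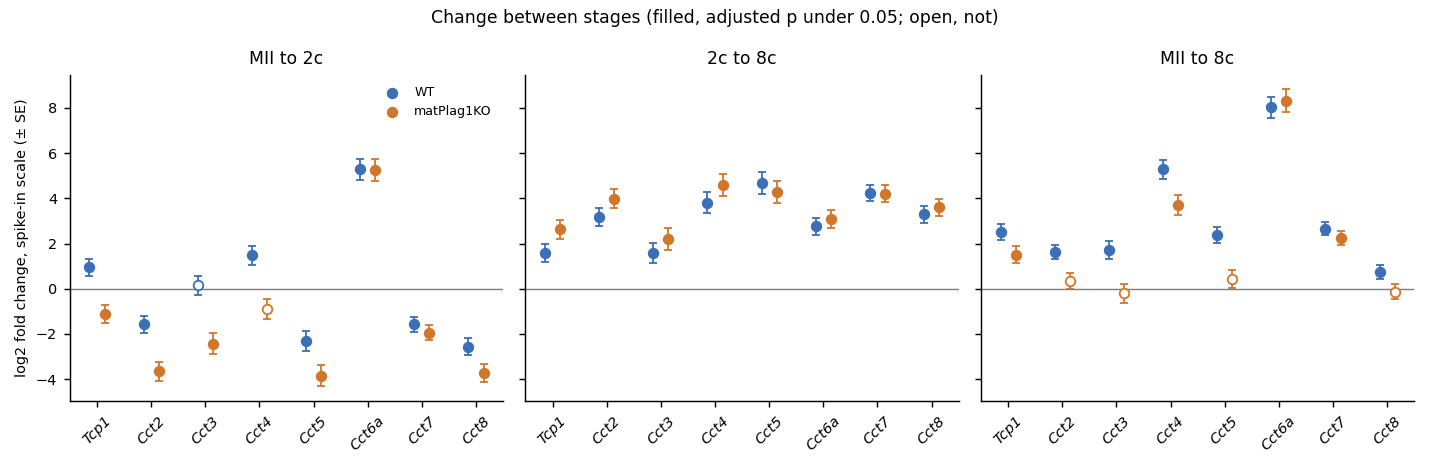
Log2 fold change of each CCT subunit between stages on the spike-in scale (y axis, bars ± SE) for MII to 2c, 2c to 8c and MII to 8c, WT in blue and matPlag1KO in orange. Filled points have an adjusted p under 0.05; from 2c to 8c all 16 points are filled and above 0, while from MII to 2c they run from -3.84 for Cct5 to 5.28 for Cct6a.

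The make-up of the summed CCT counts differed between stages. In WT the mean share of Cct8 was 32.6% ± 9.11 (SD, n = 16) in oocytes, 11.1% ± 3.84 (n = 11) at 2c and 13.5% ± 3.43 (n = 15) at 8c. The share of Tcp1 was 5.68% ± 2.62, 20.5% ± 5.92 and 7.70% ± 0.93, and that of Cct3 12.6% ± 8.11, 25.4% ± 9.91 and 10.5% ± 4.17, so that both took their largest share at 2c. The share of Cct6a was 0.0904%, 12.6% and 10.4%, and that of Cct4 0.854%, 5.23% and 9.48%. The matPlag1KO shares followed the same order for these 5 subunits, for example 27.5%, 10.1% and 11.3% for Cct8 and 5.94%, 17.6% and 9.26% for Tcp1. These shares were not tested.

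**Figure D3:**
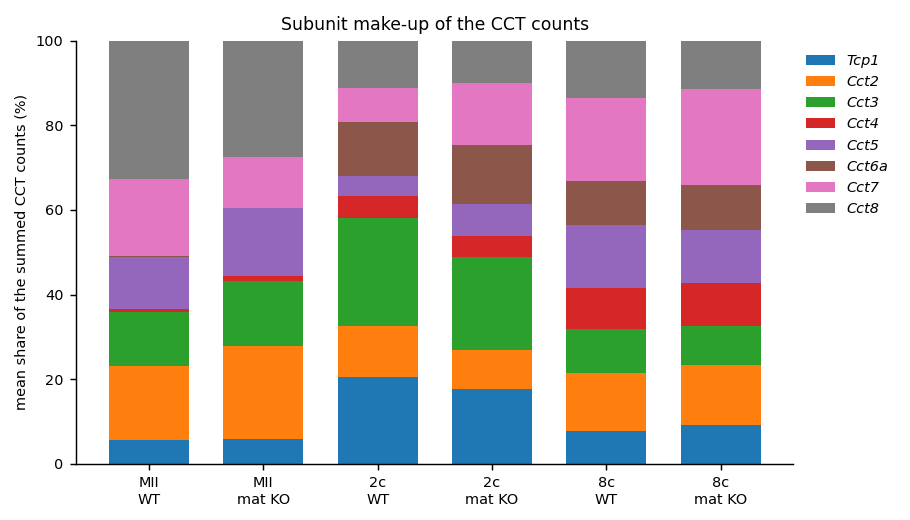
Mean share of each subunit in the summed CCT counts of a library (y axis, percent; stacked to 100) for the 6 groups (x axis). In oocytes Cct8 takes 32.6% (WT) and 27.5% (matPlag1KO) and Cct6a and Cct4 almost nothing; Tcp1 and Cct3 take a larger share at 2c than at MII or 8c in both genotypes.

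In oocytes 2 of 8 subunits, Cct4 and Cct5, were called higher in matPlag1KO than in WT, against 0.309% of all genes called higher and 0.781% called in either direction. Cct5 had 23.0 to 304 CPM (median 59.1) in WT and 16.9 to 619 CPM (median 101) in matPlag1KO oocytes. Its groups overlapped, with 4 of 14 matPlag1KO oocytes above all 16 WT oocytes and 9 above the WT median (log2 fold change 1.28 ± 0.32, adjusted p = 0.0202). Cct4 had 0 to 12 CPM (median 4.50) in WT and 3.68 to 61.0 CPM (median 8.93) in matPlag1KO, with 12 of 14 above the WT median (1.25 ± 0.34, adjusted p = 0.0474). Neither call was made within a pool: the Cct5 differences were 1.46 in libA (adjusted p = 0.0951) and 0.98 in libB (adjusted p = 0.195), the Cct4 differences 1.65 (adjusted p = 0.0959) and 0.64 (adjusted p = 0.548). With no library left out, neither was called (adjusted p = 0.10 for Cct5 and 0.112 for Cct4). Of all genes, 0.916% were called in libA, 3.05% in libB and 0.923% with no library left out.

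For Cct3 the oocytes ran from 0 to 315 CPM (median 68.1) in WT and from 25.5 to 1011 CPM (median 74.6) in matPlag1KO. The medians lay close and 2 of the 14 matPlag1KO oocytes, both in libA, stood above all WT oocytes, and the difference was 1.28 ± 0.35 (adjusted p = 0.0517). Cct3 was called in libA (2.54, adjusted p = 0.00107), with means of 320.5 CPM in matPlag1KO and 55.3 CPM in WT, but had means of 62.6 and 103 CPM in libB. Tcp1 had 8.72 to 80.6 CPM (median 29.1) in WT and 19.0 to 197 CPM (median 36.6) in matPlag1KO oocytes, and its difference of 0.92 ± 0.28 (adjusted p = 0.112) likewise turned between pools, with means of 96.0 against 27.4 CPM in libA (1.82, adjusted p = 0.00730) and 25.4 against 37.2 CPM in libB. Cct2 ran to 405 CPM in matPlag1KO (median 215) and 274 CPM in WT (median 85.8), with a difference of 0.87 ± 0.27 (adjusted p = 0.123). The differences of Cct8 (0.24 ± 0.23), Cct7 (0.10 ± 0.23) and Cct6a (-0.40 ± 0.48, from 12 counts in all) were not called. The median of the 8 was 0.90 beside 0 over all genes. Spike-in scaling, which moved the all-gene median to 0.30, called 5 higher (Tcp1, Cct2, Cct3, Cct4 and Cct5), against 0.587% of genes. Beside these values, matPlag1KO oocytes held more gene counts per spike-in count (log2 6.17 against 5.59) and summed oocyte markers of 1941 to 13891 CPM (median 7783) against 1502 to 17422 CPM (median 3447) in WT, of which 0 of 6 were called; their part in the result was not tested.

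At 2c none of the 8 was called between genotypes by edgeR, against 4.92% of all genes, while 5 had an unadjusted p under 0.05, as did 3380 of 16511 genes (DESeq2 called 0, with 3 unadjusted, against 2954 genes). All of those 5 were lower in matPlag1KO. With spike-in scaling 0 of the 8 were called, against 1.73% of genes. Only Cct2 had an unadjusted p under 0.05 on that scale, as did 3054 of 16511 genes. There the median of the 8 was -0.67, beside 0.28 over all genes. Cct2 had 34.5 to 173 CPM (median 92.8) in WT and 16.2 to 154 CPM (median 50.7) in matPlag1KO, with 10 of 11 matPlag1KO embryos under the WT median (-0.98 ± 0.35, adjusted p = 0.0800). Tcp1 had 119 to 313 CPM (median 169) in WT and 48.7 to 194 CPM (median 109) in matPlag1KO. Although 9 of 11 matPlag1KO embryos lay below every WT embryo, the difference of Tcp1 was not called (-0.85 ± 0.33, adjusted p = 0.114). Cct8 had 51.7 to 214 CPM (median 86.6) in WT and 20.4 to 120.0 CPM (median 41.6) in matPlag1KO (-0.76 ± 0.30, adjusted p = 0.116). For it 6 of 11 matPlag1KO embryos lay below every WT embryo, as did 6 of 11 for Cct3, which had 125 to 563 CPM (median 189.9) in WT and 28.2 to 254 CPM (median 123) in matPlag1KO (-0.86 ± 0.42, adjusted p = 0.219). Per spike-in count, 5 of 11 matPlag1KO embryos lay below every WT embryo for Tcp1, 4 for Cct8 and 2 for Cct3.

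Cct4 at 2c had 11.5 to 89.6 CPM (median 42.4) in WT and 13 to 53.5 CPM (median 23.1) in matPlag1KO (-0.85 ± 0.38, adjusted p = 0.170), and Cct6a 76.5 to 168 CPM (median 99.3) and 15.9 to 162 CPM (median 73.6) (-0.42 ± 0.29, adjusted p = 0.430). For Cct4 no matPlag1KO embryo lay below every WT embryo, for Cct6a 6 of 11 did. Cct5, with 17.9 to 78.1 CPM (median 36.5) in WT and 9.24 to 115 CPM (median 35.7) in matPlag1KO (0.03 ± 0.42), and Cct7, with 18.8 to 214 CPM (median 55.9) and 38.2 to 151 CPM (median 69.3) (0.12 ± 0.28), had differences within their errors. The median of the 8 was -0.81, beside 0.12 over all genes. The pools differed for Cct2, at -0.44 in libA alone and -1.61 in libB alone (adjusted p = 0.0329, called), for Cct3, at -0.37 and -1.26 (adjusted p = 0.0822), and for Cct4, at 0.045 and -1.34 (adjusted p = 0.0615). Tcp1 was at -0.92 and -0.90 and Cct8 at -0.88 and -0.78, none of them called. In libA alone 0 of 15073 genes were called at 2c, so a missing call there says nothing about a subunit. In libB alone 3.31% of genes were called. The 2c libraries held 4 to 34 counts of Cct2 each. Beside these values, summed 2c markers had 78.1 to 976 CPM (median 189.9) in WT and 162 to 579 CPM (median 401) in matPlag1KO, and 1 of 6 oocyte markers was called higher in matPlag1KO; their part in the result was not tested.

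At 8c none of the 8 was called, against 1.74% of genes, and none had an unadjusted p under 0.05 by edgeR or DESeq2. The differences ran from -0.38 ± 0.25 for Cct8 (adjusted p = 0.533) to 0.24 ± 0.29 for Tcp1 (adjusted p = 0.787), with a median of -0.03 beside 0 over all genes. Cct7 had 554 to 1079 CPM (median 747) in WT and 497 to 1514 CPM (median 661) in matPlag1KO, and Cct8 294 to 1295 CPM (median 511) and 310.1 to 563 CPM (median 400.2). The ranges of the genotypes overlapped for each of the 8 at every stage. Among all genes they were apart for 0.0121% (higher) and 0.00606% (lower) at MII and for 0.00606% in each direction at 2c. For 8c that share is not given here. In the 8c embryos 3 of the 5 markers of the 8c stage were called lower in matPlag1KO with TMM scaling, as were 87 of 16511 genes. With spike-in scaling 1 of the 5 was, as were 15 genes. The 5 markers had sums of 607 to 3070 CPM (median 1329) in WT and 141 to 2176 CPM (median 451) in matPlag1KO. Their part in the values of the subunits was not tested.

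**Figure D4:**
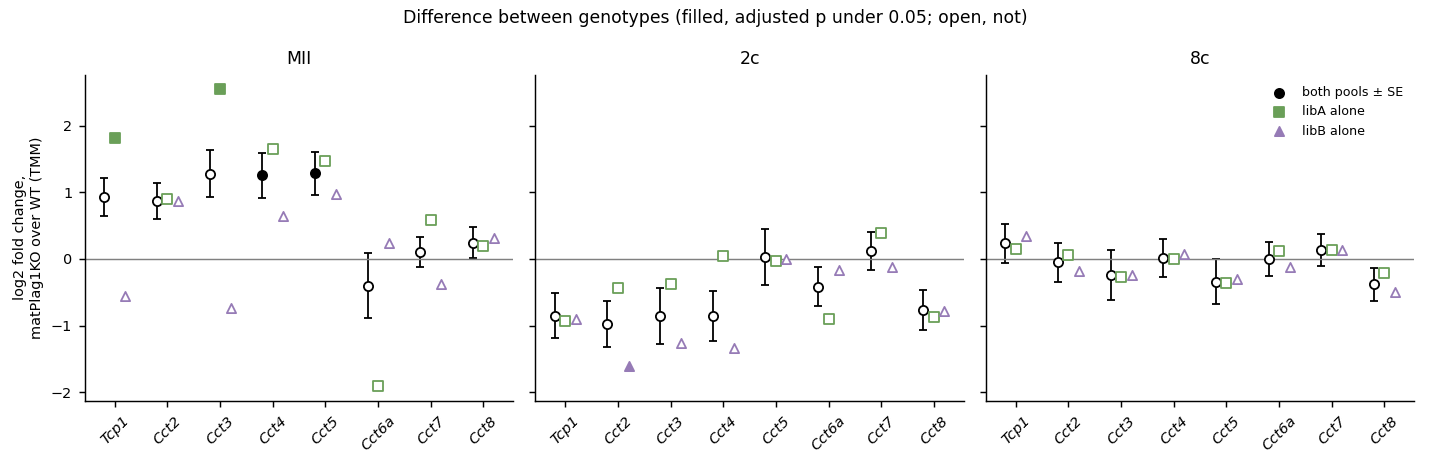
Log2 fold change of matPlag1KO over WT with TMM scaling (y axis) for each subunit at MII, 2c and 8c; circles are both pools with SE bars, squares libA alone and triangles libB alone, filled where the adjusted p is under 0.05. At MII the circles of Cct4 and Cct5 are filled and Tcp1 and Cct3 lie on opposite sides of 0 in the 2 pools; at 2c 6 circles lie below 0, at 8c they run from -0.38 to 0.24.

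The genotype difference itself differed between stages for 4 of 8 subunits: it was lower at 2c than at MII for Cct3 (-2.14 ± 0.55, adjusted p = 0.0142), Cct4 (-2.11 ± 0.50, adjusted p = 0.00786), Cct2 (-1.85 ± 0.44, adjusted p = 0.00837) and Tcp1 (-1.77 ± 0.44, adjusted p = 0.0108), against 1.68% of all genes called lower. For Cct5 (-1.25 ± 0.53, adjusted p = 0.178), Cct8 (-1.01 ± 0.38, adjusted p = 0.125), Cct7 (0.02 ± 0.37) and Cct6a (-0.02) it was not called. The SE of Cct6a came to 0.07 here, below the 0.48 of its oocyte difference alone, and is not used, as its oocyte counts were few. The median of the 8 was -1.51 beside 0.14 over all genes. Within pools this was called for 1 subunit in libA (Tcp1) and 1 in libB (Cct2), and with no library left out for 1 (Cct4). Of all genes, 0.259% were called in either direction in libA, 3.38% in libB and 2.53% with no library left out. Between 2c and 8c the genotype difference was called to differ for 0 of 8, against 2.30% of genes, with an unadjusted p under 0.05 for 2 by edgeR and 2 by DESeq2 (2958 and 2243 of 16511 genes), with values from -1.09 for Tcp1 to 0.37 for Cct5. All these comparisons share the 2c libraries and are not independent of one another.

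The partners of the ring were followed in the same fits. Of the 6 prefoldin subunits, 2 were lower in matPlag1KO at 2c with TMM scaling, where 433 of 16511 genes were called lower and 379 higher. With spike-in scaling, which calls 94 genes lower and 191 higher, neither was (adjusted p = 0.0898 for Pfdn6 and 0.0929 for Vbp1). Pfdn6 had 28.7 to 305 CPM (median 72.9) in WT and 0 to 65.5 CPM (median 27.7) in matPlag1KO (-1.70 ± 0.45, adjusted p = 0.0164), and Vbp1 31.4 to 123 CPM (median 69.3) and 4.61 to 87.3 CPM (median 31.9) (-1.28 ± 0.40, adjusted p = 0.0429). From 2c to 8c all 6 prefoldin genes rose in both genotypes (median 2.34 in WT and 2.39 in matPlag1KO), against 31.9% and 29.1% of all genes, and with TMM scaling 4 of 6 rose in WT and 5 of 6 in matPlag1KO. Pfdn6 had few counts in oocytes (14 in 6 of 16 WT). Of the 3 genes of the prefoldin-like URI complex, Pdrg1 was lower at 2c, at 35.4 to 298 CPM (median 159) in WT and 0 to 125 CPM (median 32.5) in matPlag1KO (-1.84 ± 0.40, adjusted p = 0.00321), a call also made with spike-in scaling. None of the 4 phosducin-like cofactors was called between genotypes at any stage.

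Of the 6 tubulin folding cofactors, Tbcb, which binds alpha-tubulin released from CCT, was lower at 2c, at 91.9 to 417 CPM (median 189.9) in WT and 45.1 to 134 CPM (median 78.4) in matPlag1KO (-1.45 ± 0.40, adjusted p = 0.0216), with overlapping ranges and no call with spike-in scaling (adjusted p = 0.113). Of 23 client genes, 21 were in the table and tested, and at 2c 2 were higher and 1 lower in matPlag1KO. Tuba1c, an alpha-tubulin, had 41.7 to 302 CPM (median 115) in WT and 141 to 605 CPM (median 267) in matPlag1KO (1.18 ± 0.34, adjusted p = 0.0266). Tubb3, a beta-tubulin, had 16.4 to 73.4 CPM (median 33.8) and 21.8 to 412 CPM (median 71.4) (1.30 ± 0.37, adjusted p = 0.0251), and Tuba1b was detected in 8 of the 11 WT and 2 of the 11 matPlag1KO embryos (-3.32 ± 0.94, adjusted p = 0.0253). With spike-in scaling only Tubb3 of these 3 was called (adjusted p = 0.0331), against 0.0729 for Tuba1c and 0.0847 for Tuba1b. The alpha-tubulin genes are alike in sequence to one another, as are the beta-tubulin genes, so that counts may have been split within each kind. This was not tested. Actb, the cytoplasmic beta-actin, fell from MII to 2c in WT by 3.18 ± 0.64 and rose by 5.58 ± 0.73 to 8c, and its genotype differences were 1.24 ± 0.53 at 2c (adjusted p = 0.154) and -1.46 ± 0.48 at 8c (adjusted p = 0.0953). From 2c to 8c 4 of these 21 genes rose and 3 fell in WT (median 0.32), where 5269 of 16511 genes rose and 2681 fell. In matPlag1KO 3 rose and 7 fell (median -0.77), where 4812 genes rose and 3213 fell. With TMM scaling WT had 3 that rose beside 6 that fell (3475 and 4767 of all genes). On that scale matPlag1KO had 3 beside 11 (3501 and 5008 of all genes). At 8c 2 of the 21 were called lower in matPlag1KO with TMM scaling (87 of all genes) and 0 with spike-in scaling (15 of all genes).

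Of the 7 other chaperonin genes none was called between genotypes at 2c. The mitochondrial chaperonin Hspd1 and its cofactor Hspe1 fell from MII to 2c in WT (-2.31 and -2.72) and rose to 8c (3.40 and 3.51), and both were lower in matPlag1KO at 8c with TMM scaling, where 87 of 16511 genes were called lower, but not with spike-in scaling (adjusted p = 0.185 and 0.167). Hspd1 had 31.0 to 307 CPM (median 179.6) in WT and 41.6 to 125 CPM (median 78) in matPlag1KO (-1.12 ± 0.29, adjusted p = 0.0228), and Hspe1 201 to 959 CPM (median 422) and 106 to 412 CPM (median 221) (-1.06 ± 0.30, adjusted p = 0.0423). Whether the CCT and mitochondrial chaperonins differ in this respect was not tested.

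Of the 6 genes that start head to head with a subunit, a list made after the positions were seen, none was called between genotypes at any stage. On the spike-in scale Mrpl18, of the mitochondrial ribosome and next to Tcp1, changed by -2.17 from MII to 2c in WT (adjusted p = 2.05e-07), Fam173b, next to Cct5, by -2.55 and Pradc1, next to Cct7, by -1.95, all called lower, beside an all-gene median of -1.46. With TMM scaling these were not called (-0.62, -0.92 and -0.40). Psph, the phosphoserine phosphatase next to Cct6a, had 0 to 20.9 CPM (median 7.39) in WT oocytes and 4.56 to 62.5 CPM (median 30.2) at 2c, a spike-in scaled change of 0.16 ± 0.43 (adjusted p = 0.760), against 1.81 with TMM scaling (adjusted p = 2.68e-05). From 2c to 8c 4 of the 6 rose in WT and in matPlag1KO on the spike-in scale, and 3 in each with TMM scaling. B130034C11Rik, next to Cct8, had 5 counts in all libraries together.

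Over the 78 libraries the log2(CPM + 1) of each subunit was correlated with the mean of the other 7 at r = 0.615 for Cct8 to 0.929 for Cct4. The libraries differ in stage and depth, so these values include differences between stages. By likeness, Tcp1, Cct4 and Cct6a had r = 0.854 to 0.866 with one another, and Cct2, Cct5 and Cct8 had r = 0.819 to 0.842, whereas Cct6a and Cct8 had r = 0.238. Within single groups the median over the 28 pairs was 0.64 in WT 8c embryos (n = 15) and 0.25 in matPlag1KO 8c embryos (n = 11). It was 0.21 and 0.41 in WT and matPlag1KO oocytes (n = 16 and 14), and 0.06 and 0.10 at 2c (n = 11 and 11). The 2c groups had the lowest median of gene counts per library, though Cct4 and Cct6a had fewer counts in WT oocytes.

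**Figure D5:**
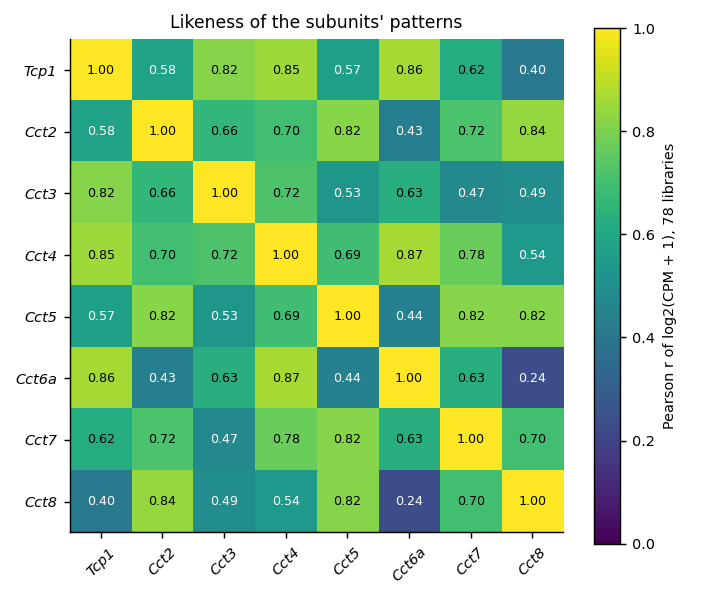
Pearson r between subunits over 78 libraries on the log2(CPM + 1) scale (color, with values printed in the cells). The libraries differ in stage and depth. Tcp1, Cct4 and Cct6a have r = 0.854 to 0.866 with one another, Cct6a and Cct8 r = 0.238.

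The genes whose pattern over the 78 libraries was most like the mean of the 8 subunits, among 8604 other genes with a mean of at least 20 CPM in some group, were Psma6, a subunit of the proteasome core (r = 0.964), the ribosomal protein genes Rps24 (0.960), Rpl5 (0.958) and Rpl32 (0.956), and Cd9, a tetraspanin of the egg surface (0.959). Psma6 had group means of 33.9, 121 and 937 CPM in WT at MII, 2c and 8c, and 48.9, 59.2 and 897 CPM in matPlag1KO. Rpl5 had 19.6, 357 and 2965 CPM in WT and 48.1, 158 and 2794 CPM in matPlag1KO. In all 5 the matPlag1KO mean was the higher one in oocytes and the lower one at 2c, though for Rps24 the oocyte means were 110 and 109 CPM. The 5 were picked for likeness over these same libraries, so a shared genotype pattern is part of the choice. These values were not tested.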

How the data were processed

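Per the labels and the study's methods, single oocytes and embryos were sequenced by single-cell tagged reverse transcription from transcript 5′ ends. The authors filtered and demultiplexed the reads, joined those with the same molecular identifier, trimmed them, aligned them to mm9 with TopHat and counted them per annotated gene with HOMER, and deposited these counts as whole numbers for 24422 genes and 92 ERCC spike-ins. Whether counting used the strand is not given in the sources used here.

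From the counts, 78 of 90 libraries were kept, those whose median was 1 CPM or more over the genes that reached 1 CPM in 5 or more libraries. Kept libraries held 92475 to 2502421 gene counts, the other 12 held 83 to 231731. The 16511 genes that reached 1 CPM in 5 or more kept libraries entered 1 fit over 6 groups with edgeR 4.0.16 (R 4.3.3, limma 3.58.1), quasi-likelihood test, two-sided, Benjamini-Hochberg adjustment over all tested genes, call at an adjusted p under 0.05. Genotype contrasts used TMM factors, stage contrasts the spike-in total as library size. SE is the fold change divided by the root of the quasi-F statistic. No 2 libraries agreed within sampling noise (lowest chi-square per degree of freedom 3.54 over 481 pairs). Alternatives were spike-in or TMM scaling, DESeq2 1.42.0 (also its size factors in edgeR), all libraries, no filter or at least 10 CPM, pool as a term, either pool alone, only the 2 groups compared, and the position code as a block. Transcript matches used minimap2 2.31, promoters RefSeq. On simulated counts the genotype test at 2c estimated the larger changes put in close to their size but left most changes uncalled.

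The text names all 8 subunits, the partner genes called at 2c (at most 3 per list) with Hspd1, Hspe1, Actb and Cct6b, and the 5 genes most like the subunits. The members and lists were chosen with earlier results of these data known.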

Additional observations from a re-analysis of the deposited data

Results flagged for a closer look

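For 4 subunits the genotype difference at 2c differed from that at MII by a test of the difference itself, a contrast of contrasts in the same edgeR fit: Cct3 (log2 difference -2.14), Cct4 (-2.11), Cct2 (-1.85) and Tcp1 (-1.77). Over both pools, matPlag1KO minus WT was positive in oocytes and negative at 2c in each. In libB alone the oocyte difference was negative for Tcp1 (-0.55) and Cct3 (-0.73), and in libA alone the 2c difference of Cct4 was 0.045. In libA alone Cct3 was at -2.91 (adjusted p = 0.0922), Cct4 at -1.61 (adjusted p = 0.444) and Cct2 at -1.33 (adjusted p = 0.433), while Tcp1 was called. In libB alone Cct4 was at -1.98 (adjusted p = 0.0630), Cct3 at -0.53 (adjusted p = 0.726) and Tcp1 at -0.34 (adjusted p = 0.860), while Cct2 was called. With no library left out the values were -1.80 for Cct3 (adjusted p = 0.0524), -1.57 for Cct2 (adjusted p = 0.0510) and -1.37 for Tcp1 (adjusted p = 0.0942), and Cct4 was called. With spike-in scaling, DESeq2 or pool as a term, 4 subunits were called, against 1.89%, 4.42% and 3.57% of all genes.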

How the results depend on the processing

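Of 808 values of single subunits under the alternatives, 751 kept their direction and side of the threshold (or were called in neither setting), 14 became called, 37 lost their call and 6 turned. The 2 calls at MII became 5 with spike-in scaling (0.830% of genes called), 1 with at least 10 CPM in 5 libraries (0.622%) and 1 with DESeq2 size factors in edgeR (0.727%). They became 0 with no library left out (0.923%), in libB alone (3.05%) and with only the 2 groups compared (0.352%). In libA alone (0.916%) Tcp1 and Cct3 were called instead of Cct4 and Cct5. At 2c the 0 calls became 1 in libB alone (Cct2 at -1.61, adjusted p = 0.0329), where 3.31% of genes were called. In libA alone 0 of 15073 genes were called at 2c. The 4 calls of the genotype difference at 2c against MII became 1 with no library left out (2.53% of genes called) and 1 in each pool alone (0.259% in libA and 3.38% in libB). The 4 of the MII to 8c change in matPlag1KO became 7 with TMM scaling. In matPlag1KO, TMM scaling turned Tcp1 (0.76) and Cct4 (1.04) from MII to 2c and Cct8 (0.85) from MII to 8c, and libB alone turned Tcp1 from MII to 2c (0.19) and Cct3 from MII to 8c (1.64). libA alone turned Cct8 from MII to 8c in WT (-0.086). The cause was not tested for any of these; fits on 1 pool or 2 groups rest on fewer samples.

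The labels give each library a position code that recurs in both pools, and do not say that a position marks a shared mother or day. In oocytes 12 of 14 same-position pairs, all 14 of opposite genotype, had deviations correlated above 0.1 (median r 0.31, highest 0.73). At 2c the median r was 0.06 over 8 pairs. As the lowest oocyte r was -0.039 and the labels name no pairing, the positions were not taken to pair the samples. The main fit does not model this likeness between oocytes. In a fit with positions as the replicate block, beside a pool term (28 oocytes in 14 positions), which called 6.10% of 12978 genes (639 higher and 153 lower), 3 subunits were called higher: Cct2 (0.91, adjusted p = 2.06e-06), Cct3 (0.65, adjusted p = 0.00352) and Cct5 (0.92), while Cct4 was at 0.96 (adjusted p = 0.218). For the embryos, no paired analysis was possible because 2 positions at 2c and 0 at 8c held both genotypes. Groups hold over 10 libraries each, and single libraries were not left out in turn. Depth limits Cct6a and Cct4 in oocytes (0 to 16 counts of Cct4 in a WT library). Counts were low at 2c too, with 2 to 20 of Cct4 in a WT library and 2 to 11 in a matPlag1KO library. There Cct5 had 2 to 21 and Cct6a 2 to 38 in matPlag1KO, and Cct7 3 to 47 in WT.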
